A study of Mus musculus with 12 samples.

Results

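Disease-associated microglia is the name given to the state that retinal and brain microglia take up around dying or degenerating neurons. The genes described here are 10 that mark it, Trem2, Tyrobp, Itgax, Cst7, Lpl, Clec7a, Spp1, Gpnmb, Apoe and Cd68. They were picked by symbol from the 25124 genes listed in each of 2 expression tables, and each had 1 row in both. Values were given for all 10 in all 12 libraries.

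The study measured polyadenylated RNA of whole mouse retina to ask how age and repeated stress shape the response to raised intraocular pressure (IOP). The mice were wild type (C57BL/6), and in each animal the pressure of 1 eye was raised to 30 mmHg for 1 h through a needle in the anterior chamber while the other eye was left untreated as the contralateral control. The first table holds retinas of 3-month-old and 18-month-old mice collected 2 days after a single elevation (3mo IOP and 18mo IOP) with their controls (3mo control and 18mo control). The second holds retinas of mice that began at 3 months of age, received 4 elevations spaced 2 weeks apart, and were collected 2 days after the last (4xIOP and 4xIOP control). Each group had 2 libraries. No group was an unoperated animal, so each control eye shared a body with a treated eye. The study calls the libraries of a group biological replicates, while the labels name no animals. The p-values rest on the spread between these libraries, moderated by the spread of all tested genes.

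Microglia of the healthy retina hold a homeostatic programme (P2ry12, Cx3cr1, Tmem119 and others). On contact with debris and lipid, the surface receptor TREM2 signals through its adaptor TYROBP, microglia take up and digest material in lysosomes, and the disease-associated genes are switched on while part of the homeostatic programme is lowered. Several of these genes are not private to microglia in the eye. Apoe is made in quantity by Muller glia, Spp1 by some retinal ganglion cells, Gpnmb by pigment cells, and Lpl by neurons and other cells.

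Depth was recovered from the values, which are FPKM (reads scaled by transcript length and by the mapped tags of the library). It lay between 39766230 and 59455050 mapped tags, with 44.2% to 71.5% of them in exons, and a count of 3 reads on a transcript of 2000 bases corresponded to 0.0252 to 0.0377 FPKM. Intervals and floors on reads cover counting error only. The tissue label held in all libraries, with 8 rod photoreceptor genes summing to between 5193 and 25312 FPKM. Libraries of the same kind still differed in their other cells. The sum of 10 retinal pigment epithelium and melanocyte markers reached 222 and 206 FPKM for 3mo control and 702 and 305 for 3mo IOP, but 12.3 and 2.86 in 18mo control and 4.93 and 1.57 in 18mo IOP. The ratio of short to long transcripts was 1.89 and 4.70 for 3mo control and 3.26 and 2.99 for 3mo IOP, and it stayed between 1.20 and 1.36 in the 4 libraries of old retina.

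For 8 members the annotation gave the promoter of the transcript that was counted, and 4 of them, Trem2, Clec7a, Spp1 and Cd68, held the letters GAGGAA on either strand in the 250 bases before the start site. GAGGAA is the core recognised by PU.1, the lineage factor of macrophages and microglia, and 23.3% of 32851 promoters of the same length held it. Itgax, Cst7, Gpnmb and Apoe did not hold it there, though the windows before other annotated start sites of Apoe did. The letters TCACGTG or TCATGTG, bound by the lysosomal MiT/TFE factors, were searched on both strands and were in none of the 8, against 6.28% of all promoters. Such matches are a description of letters, not of binding. The 4 promoters with a match are shown because their genes all rose after repeated IOP elevation, as did Itgax and Gpnmb, whose promoters lacked the letters. They are printed 5′ to 3′ on the strand of the gene, from RefSeq on GRCm38.p6, with the GAGGAA match, or TTCCTC where it lies on the opposite strand, in capitals. Trem2 is on the plus strand (chr17:48346151-48346400), Clec7a on the minus strand (chr6:129472786-129473035), Spp1 on the plus strand (chr5:104434861-104435110) and Cd68 on the minus strand (chr11:69666171-69666420).
Trem2: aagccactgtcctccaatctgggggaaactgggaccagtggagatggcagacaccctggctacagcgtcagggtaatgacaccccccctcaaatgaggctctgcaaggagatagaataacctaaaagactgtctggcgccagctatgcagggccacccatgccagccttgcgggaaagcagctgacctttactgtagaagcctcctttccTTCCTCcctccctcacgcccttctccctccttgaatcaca
Clec7a: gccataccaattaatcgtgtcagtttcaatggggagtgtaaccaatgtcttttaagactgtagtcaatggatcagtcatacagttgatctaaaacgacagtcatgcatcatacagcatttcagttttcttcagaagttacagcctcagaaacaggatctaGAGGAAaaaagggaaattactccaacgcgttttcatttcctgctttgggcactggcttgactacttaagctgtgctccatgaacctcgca
Spp1: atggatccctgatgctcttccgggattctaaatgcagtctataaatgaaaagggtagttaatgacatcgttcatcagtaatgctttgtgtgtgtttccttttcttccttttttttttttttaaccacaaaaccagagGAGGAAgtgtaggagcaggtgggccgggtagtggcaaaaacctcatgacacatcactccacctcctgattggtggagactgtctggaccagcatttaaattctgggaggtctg
Cd68: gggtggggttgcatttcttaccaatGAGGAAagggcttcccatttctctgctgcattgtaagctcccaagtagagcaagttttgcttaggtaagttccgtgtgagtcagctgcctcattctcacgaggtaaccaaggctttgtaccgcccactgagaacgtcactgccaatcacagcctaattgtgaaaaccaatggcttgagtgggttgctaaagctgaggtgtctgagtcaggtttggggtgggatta

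**Figure D1:**
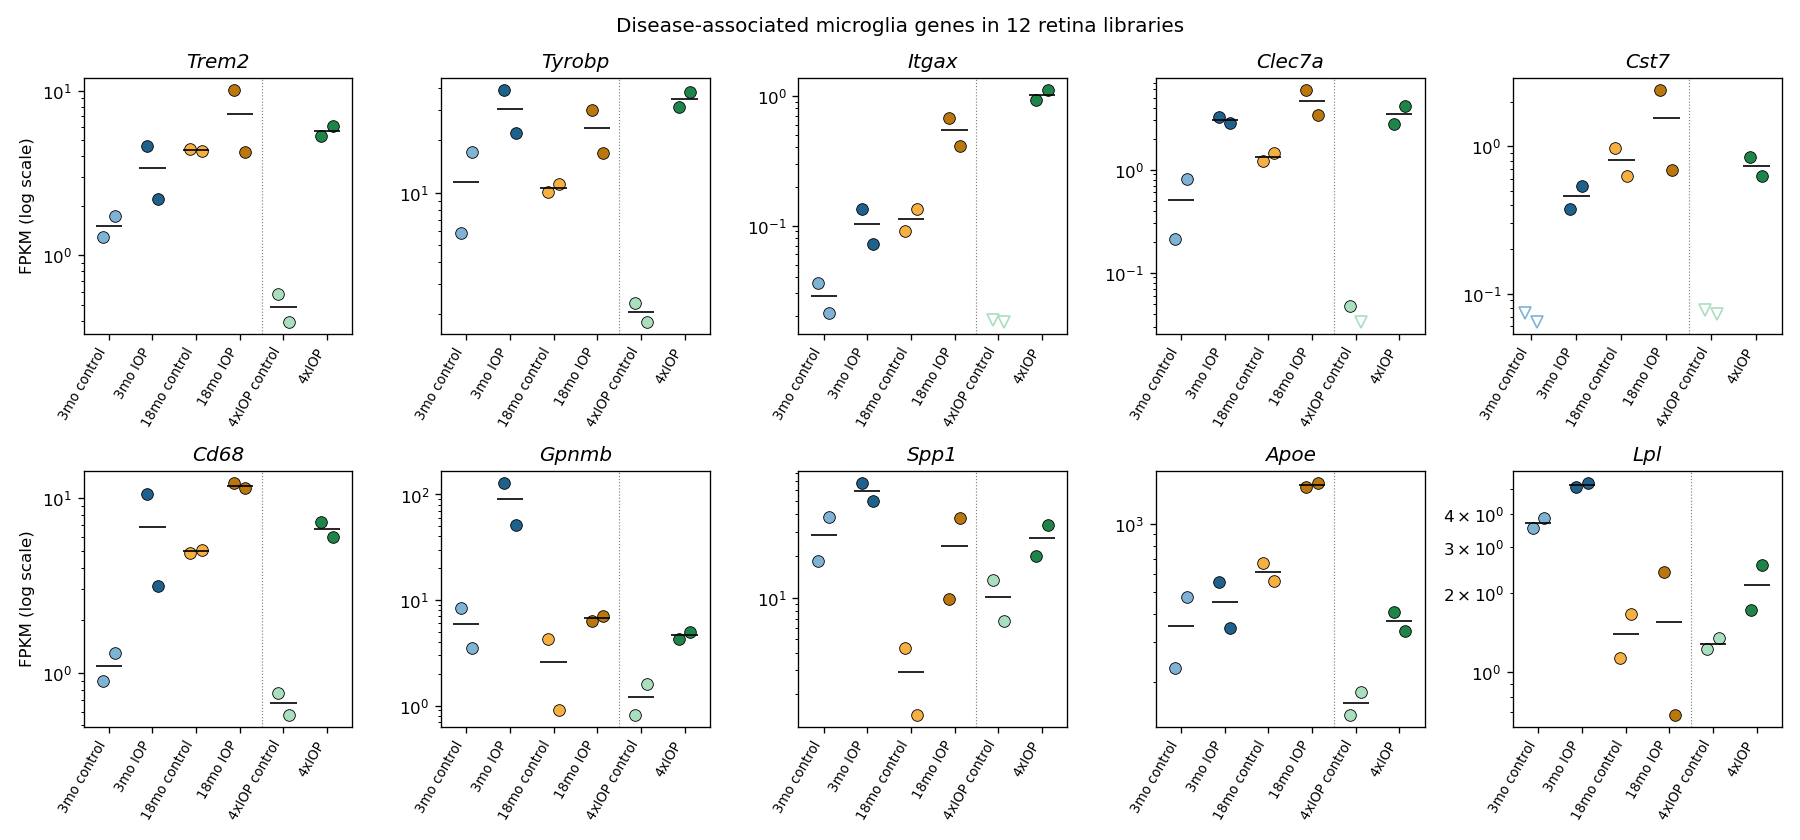
FPKM of the 10 genes on log axes, 1 point per library, with a line at the mean of the 2 libraries of a group. Open triangles are libraries with at most 3 reads, drawn at the level of 3 reads, and no mean is drawn there. The dotted line separates the 2 tables, which were scaled separately. In the 4xIOP retinas both libraries lay above both controls for all 10 genes.

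Repeated IOP elevation was set against its contralateral control first, because it gave the most calls among the members. All 10 members were higher in both 4xIOP libraries than in both control libraries, as were 28.1% of the 19593 genes with any value. Of the 9 that reached a mean of 0.5 FPKM and were tested, 7 rose (limma on log2(FPKM + 0.5), with a Benjamini-Hochberg adjusted p no higher than 0.05 and a change of 1 or more on the log2 scale), where 5.45% of the 13718 genes tested did. None fell, where 0.693% of all genes did. Trem2, Itgax and Clec7a averaged under 0.5 FPKM in controls and were tested only because they were high in 4xIOP, so the count of 7 is no measure of how often members rose, and of the 6 others 4 rose. With no filter on low values all 10 were tested, and 7 rose, Cst7 in place of Spp1, and none fell, where 3.24% of all genes rose and 0.286% fell. The median log2 fold change of all 10 was 1.60 in that fit, against 0.074 over all genes, or 2.63 with Itgax and Cst7 placed at the bound that 3 reads allow. These are whole-retina values, in which more cells of a type and more RNA per cell cannot be told apart.

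The receptor and its adaptor both rose. Trem2, the lipid-sensing receptor, stood at 0.580 and 0.392 FPKM in the 4xIOP control libraries and at 5.29 and 6.09 in 4xIOP, so even the lower treated library was far above the higher control. Trem2 rose by 2.65 ± 0.21 (SE) on the log2 scale (limma, adjusted p = 2.87e-06). Tyrobp, which carries the signal of TREM2 into the cell, went from 2.31 and 1.80 FPKM to 30.9 and 38.1, and rose by 3.78 ± 0.22 on that scale (limma, adjusted p = 3.21e-07). Clec7a, which encodes Dectin-1, a receptor for fungal and cell debris sugars, was nearly silent in controls, at 0.047 and 0.022 FPKM, and reached 2.75 and 4.13. Only 6 reads lay behind the control values and 705 behind the treated ones, a ratio per mapped tag of 98.0 (exact 95% interval 44.8 to 268). On the log2(FPKM + 0.5) scale, which understates changes of low genes, Clec7a rose by 2.86 ± 0.25 (limma, adjusted p = 7.17e-06). With no filter on low values the adjusted p from limma was larger, at 0.00576 for Trem2, 0.00450 for Tyrobp and 0.00576 for Clec7a.

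Itgax, the integrin chain CD11c, was listed at 0 in control replicate 1 and at 0.018 FPKM in control replicate 2, and at 0.937 and 1.11 in 4xIOP. That is 3 reads against 399, a ratio of 111 (exact 95% interval 37.7 to 540). Its fitted difference of 1.58 ± 0.27 (limma, adjusted p = 0.00187) rests on a gene that passed the filter through the 4xIOP libraries alone, and with no filter it was also called (limma, adjusted p = 0.00576). Cst7, which encodes cystatin F, an inhibitor of lysosomal cathepsins, was under the level needed for the test, with 2 reads in controls and 73 in 4xIOP, a ratio of 30.4 (exact 95% interval 8.13 to 256). Both Cst7 control libraries, at 0 and 0.048 FPKM, lay under both treated libraries, at 0.854 and 0.628, and with no filter on low values it was called (1.24; limma, adjusted p = 0.0101).

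The lysosomal genes moved with the receptors. Cd68, a membrane protein of phagocyte lysosomes, went from 0.771 and 0.572 FPKM to 7.26 and 5.96, a rise of 2.60 ± 0.21 on the log2 scale (limma, adjusted p = 3.07e-06, and 0.00579 with no filter). Gpnmb, a glycoprotein of lysosomes and melanosomes, went from 0.811 and 1.62 FPKM to 4.28 and 4.98, with a rise of 1.62 ± 0.24 on that scale (limma, adjusted p = 0.000594, and 0.0430 with no filter). Pigment cell markers went the other way in these libraries, from sums of 28.6 and 38.0 FPKM in controls to 3.04 and 6.72, and the 4 of them that were tested fell. The part of pigment cells in the Gpnmb values was not tested. Spp1, the secreted protein osteopontin, went from 13.5 and 6.80 FPKM to 20.1 and 33.8 and rose by 1.40 ± 0.33 (limma, adjusted p = 0.0173).

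The lipid genes had the smallest differences of the tested members. Apoe, the main lipid carrier of the nervous system, had 143 and 181 FPKM in controls and 409 and 336 in 4xIOP, with a log2 fold change of 1.20 ± 0.38 that missed the threshold (limma, adjusted p = 0.0834). Lpl, the lipase that frees fatty acids from lipoproteins, had 1.22 and 1.34 FPKM in controls and 1.72 and 2.55 in 4xIOP (0.55 ± 0.22; limma, adjusted p = 0.224). The groups did not overlap for either gene. With each of the 4 libraries left out in turn, between 5 and 7 members were called, and a lone library was then assumed to vary like the other group. Trem2, Tyrobp, Clec7a and Cd68 were called each time. Spp1 lost its call without 4xIOP control replicate 2 (limma, adjusted p = 0.749), without 4xIOP replicate 1 (0.0559) or replicate 2 (0.274), and also with median-of-ratios size factors (0.0504) and with no filter on low values (0.157). Gpnmb lost its call without 4xIOP replicate 2 (0.0841), and Itgax fell under the filter without either 4xIOP library. Apoe was called without 4xIOP replicate 2 (limma, adjusted p = 0.0472), with the length trend removed (0.0387), without the trend in eBayes (0.00720), with voom (0.0299) and with crossed replicate numbers (0.0295).

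Genes next to these in the same programme rose as well. Of 22 other disease-associated microglia genes, all tested, 12 rose after repeated elevation and none fell, with a median log2 fold change of 1.27. They included Lyz2 (6.41 ± 0.22), the lysozyme of myeloid cells, Cd52 (4.58 ± 0.21), a leukocyte surface peptide, and Lgals3 (2.95 ± 0.20), which encodes galectin-3. Of 15 genes that relay TREM2-TYROBP and Dectin-1 signals, 14 were tested and 8 rose, among them Ptpn6 (2.61 ± 0.24), the phosphatase that curbs such signals, Syk (1.94 ± 0.26), the kinase that docks on TYROBP, and Vav1 (1.92 ± 0.26), an exchange factor downstream of it. The limma adjusted p of these 6 genes lay at or under 0.000280. Ptpn6, Syk and Vav1 averaged under 0.5 FPKM in controls and were tested only because they were high in 4xIOP. The count of 8 is therefore no measure of how often the signalling genes rose.

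Markers of other immune states moved in the same libraries. Of 12 homeostatic microglia markers, 10 were tested and 8 rose, and their sum went from 14.0 and 13.4 FPKM to 49.9 and 63.9. All 9 pan-myeloid markers rose, from sums of 13.5 and 13.2 FPKM to 196 and 179. Of 14 blood leukocyte and border macrophage markers, 8 were tested and 7 rose, with sums of 3.45 and 2.17 FPKM in controls and 66.9 and 59.2 in 4xIOP. S100a8 and S100a9, carried by neutrophils and monocytes, rose by 5.39 and 4.60 on the log2 scale and Ccr2, the monocyte chemokine receptor, by 2.99. These 3 genes too passed the filter through the 4xIOP libraries alone. Of the 14 blood leukocyte and border macrophage markers, 9 and 10 had at most 3 reads in the 2 control libraries. The count of 7 is therefore no measure of how often they rose. Ly6g, which defines neutrophils, had at most 3 reads in all 12 libraries, and the T cell gene Cd3e in 11. All 7 tested lens markers also rose, from sums of 5.02 and 0.938 FPKM to 49.8 and 113. Of the 9 listed, 2 and 4 had at most 3 reads in the control libraries, and this count too is no measure of how often they rose. Rod photoreceptor markers had sums of 10655 and 11216 FPKM in controls and 5193 and 7777 in 4xIOP. Of the 8, 7 were lower without overlap (median -0.89), where 1739 of all 13718 genes were, with none called. Of 7 tested Muller glia and astrocyte markers 2 rose, among them Gfap (3.76; limma, adjusted p = 6.03e-07), although their sums were 840.2 and 896 FPKM in controls and 649.7 and 764 in 4xIOP. The part of these cells in the members' rise was not tested.

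**Figure D2:**
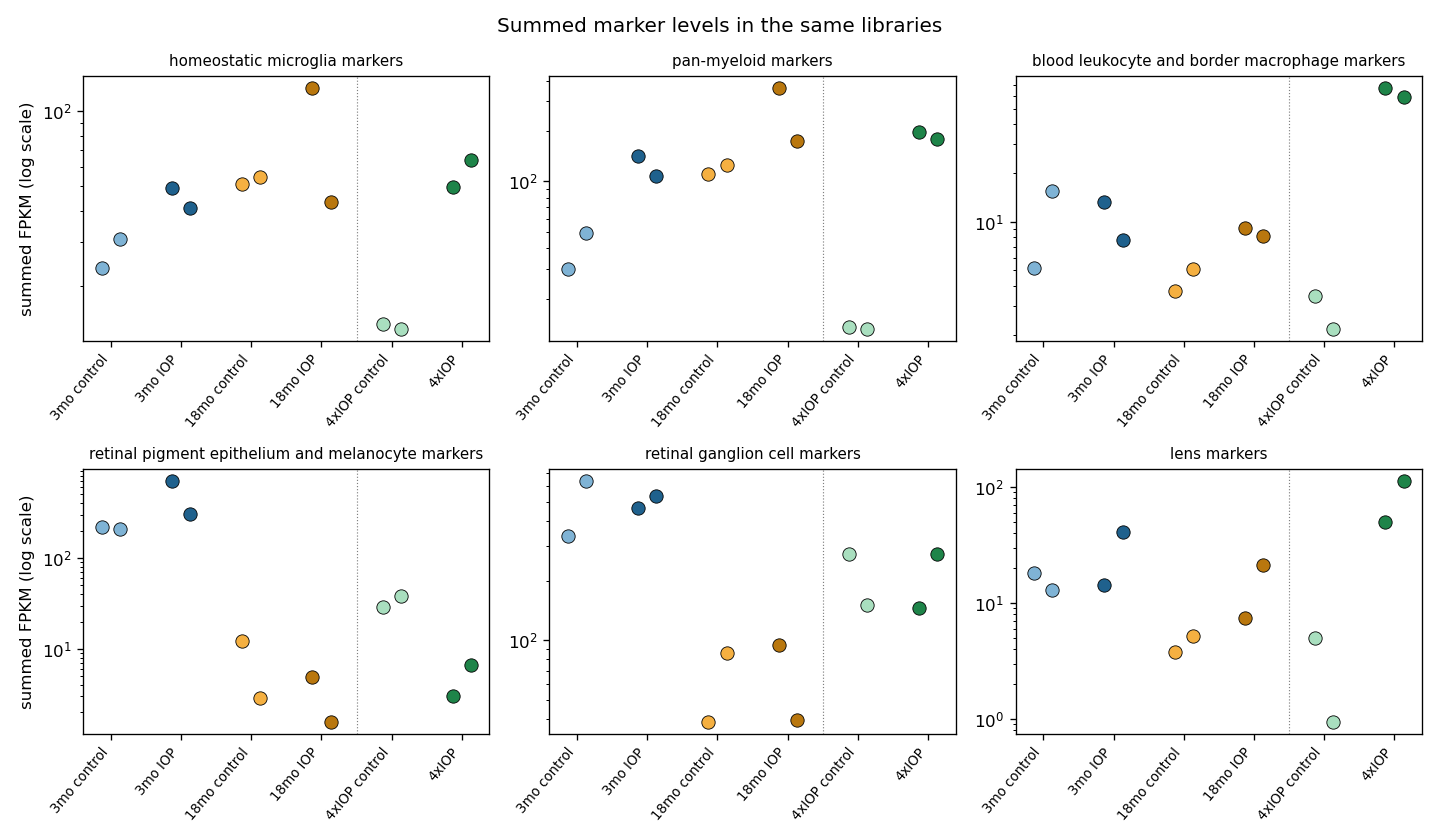
Summed FPKM of 6 marker lists on log axes, 1 point per library, in the same 6 groups, with the 2 tables separated by a dotted line. Homeostatic, pan-myeloid, blood leukocyte and lens markers were higher in both 4xIOP libraries than in both controls, and pigment cell markers were 206 FPKM or more in young single-IOP retinas and at most 12.3 in old ones.

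After a single elevation in young retinas the tested members had higher means than in controls, with wide spread between libraries, and none passed the test. All 9 tested members had a positive log2 fold change in 3mo IOP against 3mo control, where 74.6% of all genes did, 8 of them with no overlap between the groups, where 28.6% of all 13731 tested genes were higher without overlap. The exception was Apoe. Cst7 was tested only through its 18mo libraries. With no filter 9 of all 10 members were higher without overlap, where 25.9% of genes were, and the median log2 fold change of all 10 was 1.01 against 0.084 over all genes, or 1.31 with Cst7 placed at the bound of 3 reads. No member was called by limma, where 0.568% of all genes were called higher. At an unadjusted p under 0.05 there were 4 members, where 8.28% of all genes were higher at that p, and voom on the recovered reads called none.

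Gpnmb had the widest difference. Its control libraries held 8.36 and 3.49 FPKM and its 3mo IOP libraries 128 and 50.8, a log2 difference of 3.77 ± 0.64 that fell just short of the threshold (limma, adjusted p = 0.0531). It was called, as the sole member, with a pseudocount of 1, with the transcript length trend removed, with only the 2 groups fitted and with same-numbered libraries as a replicate block. The summed pigment cell markers were also higher in these libraries, but 5 of the 9 tested had a log2 fold change above 0, with a range from -0.70 to 3.59 and a median of 2.02, and 1 was called. That marker, Mlana, a melanosome gene, stood at 11.4 and 4.57 FPKM in 3mo control and 124 and 69.0 in 3mo IOP and rose by 3.59 on the log2 scale (limma, adjusted p = 0.0325). Replicate 1 of 3mo IOP was the higher of the pair for Gpnmb, for Mlana and for the summed pigment cell markers. The part of pigment cells in the Gpnmb values was not tested.

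Clec7a had the smallest standard error of the tested members. It stood at 0.214 and 0.811 FPKM in 3mo control and 3.27 and 2.83 in 3mo IOP, so that the 2 treated libraries lay close together and well above both controls. The log2 difference was 1.87 ± 0.34 (limma, adjusted p = 0.0650). Cd68 had 0.894 and 1.30 FPKM in control and 10.5 and 3.14 in 3mo IOP (2.00 ± 0.44; limma, adjusted p = 0.122), with replicate 1 more than 3 times as high as replicate 2. Tyrobp had 5.84 and 17.2 FPKM in control against 39.0 and 22.0 (1.49 ± 0.49; limma, adjusted p = 0.352). Without 3mo control replicate 2, Clec7a (2.31) and Tyrobp (2.23) were called, without 3mo IOP replicate 2 Cd68 was (2.79), and without either 18mo IOP library Clec7a was (1.87).

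The other members differed by less than the spread allowed a call. Trem2 had 1.29 and 1.72 FPKM in control and 4.62 and 2.19 after elevation, with a log2 difference of 0.90. Spp1 had 18.3 and 38.0 against 67.5 and 50.1 (1.12). Cst7, with 4 reads in both controls together, had 42 after elevation, a ratio of 9.77 (exact 95% interval 3.54 to 37.5). Lpl had 3.54 and 3.87 FPKM against 5.06 and 5.25 (0.43). The Apoe libraries crossed, at 231 and 475 against 553 and 349. Itgax was under the level needed for the test, at 0.036 and 0.021 FPKM against 0.133 and 0.072. Of the 22 other disease-associated genes 4 rose, among them Lilrb4a (1.90), an inhibitory receptor, Cd52 (2.18) and B2m (1.67), the light chain of class I antigen presentation. None of the 9 tested signalling genes and none of the 11 tested homeostatic markers was called by limma, although 9 of these 11 were higher without overlap, with sums of 23.4 and 30.8 FPKM against 49.4 and 40.8. All 9 pan-myeloid markers were higher without overlap (median 1.48), with sums of 30.1 and 49.2 FPKM in controls and 141 and 108 after elevation, and Fcer1g, an adaptor related to TYROBP, rose (1.51; limma, adjusted p = 0.0372). Of the Muller glia and astrocyte markers Gfap rose (3.44; limma, adjusted p = 0.0271), while their sums overlapped, at 527 and 665 FPKM against 766 and 593. Their part in the members' values was not tested.

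In old retinas a single elevation again gave positive differences without a call. Of the 9 tested members, 8 had a positive log2 fold change in 18mo IOP against 18mo control, where 65.9% of all genes did, and 6 did not overlap, against 36.5% of all genes higher without overlap. Their median was 1.17, against 0.089 over all genes. None was called by limma, where 0.117% of all genes were called higher. Of the members 5 had an unadjusted p under 0.05, where 8.71% of all genes were higher at that p, and voom called none.

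Apoe and Cd68 were the members whose 18mo IOP libraries lay closest together. Apoe stood at 671 and 560 FPKM in 18mo control and at 1460.3 and 1513 in 18mo IOP (1.28 ± 0.39; limma, adjusted p = 0.258). Of 7 tested Muller glia and astrocyte markers 5 were higher without overlap, with sums of 1422 and 1132 FPKM against 1715 and 1591, and Gfap, the filament protein of reactive glia, rose (3.37; limma, adjusted p = 0.0443), and their part in the Apoe values was not tested. Cd68 stood at 4.86 and 5.07 against 12.2 and 11.4 (1.17 ± 0.44; limma, adjusted p = 0.398). Both groups were tight for these genes. The standard error was set by all 4 groups of the table, and with only the 2 groups fitted no gene was called either. Clec7a had 1.22 and 1.45 FPKM against 5.92 and 3.37 (1.44 ± 0.34; limma, adjusted p = 0.159).

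Spp1 had the widest difference and the widest spread. Its libraries held 4.35 and 1.41 FPKM in 18mo control and 9.69 and 37.6 in 18mo IOP, a log2 difference of 2.70 ± 0.66 (limma, adjusted p = 0.171). It was called when 18mo IOP replicate 1, the lower library, was left out (3.65) and with a block of crossed replicate numbers, chosen after seeing the data (2.70; limma, adjusted p = 0.00194). Gpnmb had 4.28 and 0.903 FPKM against 6.30 and 7.12 (1.47 ± 0.64; limma, adjusted p = 0.522). Tyrobp had 10.1 and 11.2 against 30.1 and 17.0 (1.05). Itgax, not tested, had 0.091 and 0.133 FPKM against 0.676 and 0.411, and its groups did not overlap.

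Trem2, Cst7 and Lpl differed between the 2 libraries of 18mo IOP, with replicate 1 the higher. Trem2 had 4.44 and 4.28 FPKM in control and 10.1 and 4.24 after elevation, so that replicate 2 lay at the control level and the difference of 0.54 turned to -0.037 without replicate 1. Cst7 had 0.978 and 0.632 against 2.42 and 0.687. Lpl had 1.13 and 1.66 against 2.40 and 0.683 (-0.018), with the treated libraries on either side of the controls, and its sign depended on the setting, with 0.63 without 18mo IOP replicate 2. Homeostatic microglia markers summed to 124 FPKM in that same replicate 1 and to 43.4 in replicate 2, with 51.3 and 54.7 in controls. Of the other disease-associated genes Lilrb4a was called higher (1.98), as in young retinas. All 9 pan-myeloid markers were higher without overlap (median 1.03), with sums of 111 and 126 FPKM in controls and 361 and 175 after elevation. The 6 tested lens markers were also higher without overlap, with sums of 3.77 and 5.16 against 7.45 and 21.4 FPKM. Of 5 tested blood leukocyte and border macrophage markers 3 were higher without overlap (median 1.42), with sums of 3.72 and 5.07 against 9.16 and 8.12 FPKM. Blood cell and endothelial markers went the other way, with sums of 140.0 and 347 FPKM against 63.7 and 50.1. Of these 7 markers 4 were lower without overlap (median -1.63), where 1358 of all 13731 genes were. None of these markers was called, and their part in the members' values was not tested.

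Whether the response differed with age was tested as an interaction. No member and no gene of 13731 was called by limma, and 218 genes had an unadjusted p under 0.05. Gpnmb, whose log2 difference after elevation was 3.77 in young and 1.47 in old retinas, was the sole member at that level, where 1.01% of all genes were lower at it (-2.30 ± 0.90, unadjusted p from limma 0.0337, adjusted p close to 1). Spp1 pointed the other way (1.57 ± 0.93), with 1.12 in young and 2.70 in old. With 2 libraries a group, standard errors between 0.48 and 0.93 leave room for sizeable differences either way.

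**Figure D3:**
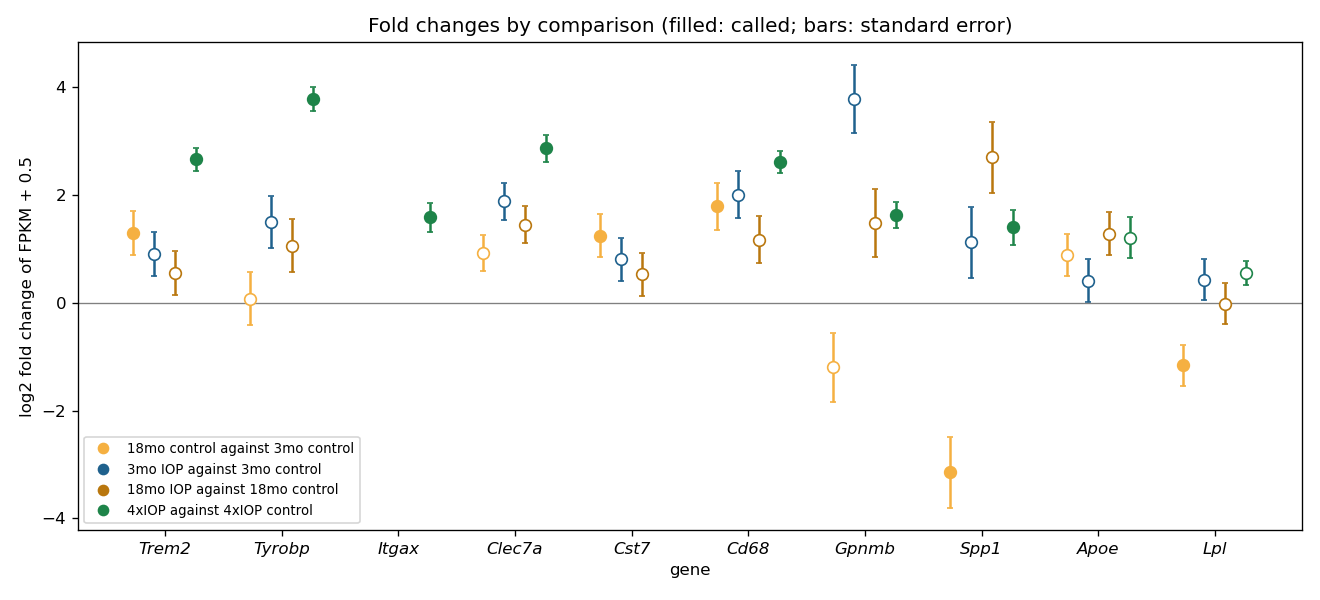
Log2 fold changes of FPKM + 0.5 with standard errors from limma for each member in 4 comparisons, with filled symbols where the change was called. Repeated elevation gave 7 filled symbols, age 5 and a single elevation none. Itgax was not tested in the single-IOP table and Cst7 was not tested in the repeated-IOP table.

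Members moved both ways with age in untreated eyes. With no filter on low values their counts lay near the shares of all genes, and they are not read as a trait of the members. Of 9 tested, 3 rose and 2 fell in 18mo control against 3mo control, where 11.6% of all genes were called higher and 11.6% lower, so many genes moved with age in these libraries. Members higher without overlap numbered 5 and lower without overlap 2, against 45.7% and 32.8% of all genes. Cst7, among the risen ones, was tested only through its 18mo libraries, and of the 8 others 2 rose and 2 fell. With no filter 1 of all 10 members rose (Cd68) and 1 fell (Spp1), where 7.5% and 6.99% of genes did, and the median of all 10 was 0.55, against 0.013 over all genes.

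Cd68, Trem2 and Cst7 rose with age. Cd68 went from 0.894 and 1.30 FPKM to 4.86 and 5.07 (1.79 ± 0.44; limma, adjusted p = 0.0143), with old libraries far above young ones. Trem2 rose from 1.29 and 1.72 to 4.44 and 4.28 (1.29 ± 0.41; limma, adjusted p = 0.0341). Cst7 rose from 0.074 and 0.021 FPKM to 0.978 and 0.632, or from 4 reads to 71, a ratio of 17.5 (exact 95% interval 6.54 to 65.9; limma, adjusted p = 0.0355, and 0.0613 with no filter). Clec7a (0.92; limma, adjusted p = 0.0542) and Apoe (0.89; limma, adjusted p = 0.0961) were higher in both old libraries without a call, and Itgax, not tested, had 41 reads against 10.

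Tyrobp did not follow its partner Trem2. Its young libraries, at 5.84 and 17.2 FPKM, enclosed the old ones, at 10.1 and 11.2, and the difference was 0.074 ± 0.49 (limma, adjusted p = 0.912). Tyrobp was called higher with the trend on transcript length removed (1.12; limma, adjusted p = 0.0277) and stood at -0.67 without 3mo control replicate 1. The ratio of short to long transcripts was 1.89 and 4.70 in the same young libraries, in the order of the values above, and its part in the Tyrobp values was not tested.

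The members on the falling side were Spp1 and Lpl. Spp1 fell from 18.3 and 38.0 FPKM to 4.35 and 1.41 (-3.15 ± 0.66; limma, adjusted p = 0.00930). Lpl fell from 3.54 and 3.87 to 1.13 and 1.66 (-1.16 ± 0.38; limma, adjusted p = 0.0365). Of 9 retinal ganglion cell markers 6 also fell, with sums of 337 and 637 FPKM in 3mo control and 38.5 and 86.0 in 18mo control. Gpnmb had 8.36 and 3.49 FPKM against 4.28 and 0.903 (-1.20; limma, adjusted p = 0.152), in libraries where all 9 tested pigment cell markers fell. The part of ganglion or pigment cells in these values was not tested.

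The number of age calls moved with single libraries, while the differences of the 5 called members kept their direction. With a library left out these ran from 1.60 to 1.97 for Cd68, 1.13 to 1.44 for Trem2, 1.05 to 1.43 for Cst7, -1.37 to -0.96 for Lpl and -3.82 to -2.47 for Spp1. Without 18mo control replicate 2 no member was called, without 18mo control replicate 1 or 3mo control replicate 1 Spp1 alone was, and without 3mo control replicate 2 Cd68 kept its call, the other 4 lost theirs and Clec7a and Apoe gained one. Without either 3mo IOP library Cst7 and Lpl lost their calls. With no filter on low values only Cd68 and Spp1 were called, and with voom on the recovered reads Trem2 lost its call (1.36; adjusted p = 0.0954). Of 9 pan-myeloid markers 6 rose with age, with sums of 30.1 and 49.2 against 111 and 126 FPKM, and 4 of 11 homeostatic markers rose, while 3 of 22 other disease-associated genes did, namely Timp2 (1.63), Axl (1.62) and Csf1 (1.38). Of 9 signalling genes Malt1 (1.10) rose. Among all genes 11.6% were called higher, which is near the share in these last 2 lists. Other cells' markers moved in the same libraries. Of 7 blood cell and endothelial markers 4 rose (median 1.94), among them Cldn5 (3.19), a tight junction protein of vessels, and Pecam1 (2.05), although their sums overlapped, at 16.6 and 211 FPKM in 3mo control and 140.0 and 347 in 18mo control. Of 7 tested Muller glia and astrocyte markers 3 rose (median 0.97), with sums of 527 and 665 FPKM in young and 1422 and 1132 in old controls. Their part in the members' values, Apoe included, was not tested.

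Between treated retinas of both ages, Apoe was higher in old ones and Gpnmb and Lpl lower. Apoe stood at 553 and 349 FPKM in 3mo IOP and at 1460.3 and 1513 in 18mo IOP and was called higher (1.76 ± 0.39; limma, adjusted p = 0.0126), where 10.2% of all genes were. Muller glia and astrocyte markers summed to 766 and 593 FPKM in 3mo IOP and to 1715 and 1591 in 18mo IOP, and the share of Muller glia in the Apoe values was not tested. Gpnmb fell from 128 and 50.8 FPKM to 6.30 and 7.12 (-3.50 ± 0.64; limma, adjusted p = 0.00770) and Lpl from 5.06 and 5.25 to 2.40 and 0.683 (-1.61 ± 0.38; limma, adjusted p = 0.0144), where 11.6% of all genes were called lower. All 9 tested pigment cell markers (median -5.83) and 8 of 9 ganglion cell markers (median -1.79) were called lower between the same libraries, and the part of those cells in the Gpnmb and Lpl values was not tested. Without 3mo IOP replicate 1 only Cd68 was called (1.75), and without 3mo IOP replicate 2 only Gpnmb was (-4.16), and without 18mo IOP replicate 2 Apoe (1.73) and Lpl (-0.96) lost their calls while Trem2 (1.51), Cst7 (1.61) and Spp1 (-2.52) gained one. With the transcript length trend removed 6 members were called, Trem2 (1.66), Cst7 (1.78) and Cd68 (1.56) being added as higher, and the difference of Tyrobp turned from -0.37 to 0.70. Cst7 averaged under 0.5 FPKM in 3mo IOP and was tested only through its 18mo libraries.

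Setting each member against homeostatic microglia markers in the same library shows whether it moved more than those genes did. The log2 level of each member was taken relative to the mean of 10 such markers in the repeated-IOP table and 11 in the single-IOP table, as values without a test. In 4xIOP, Tyrobp (2.12), Clec7a (1.20), Trem2 (0.99) and Cd68 (0.94) gained on them, higher in both treated libraries than in both controls, where 1.78% of all genes did so and 95.6% were lower. The value of Clec7a is understated, since its controls lay far under the pseudocount, and was 2.51 with a pseudocount of 0.1. Gpnmb (-0.042), Spp1 (-0.26) and Apoe (-0.46) overlapped and Lpl was lower (-1.11), and with a pseudocount of 0.1 Spp1 and Apoe were lower too. Itgax is not read on this scale, because with 3 reads its control value was set by the pseudocount. Against 9 pan-myeloid markers instead, Tyrobp was higher, where 0.284% of all genes were, and Trem2, Cd68, Gpnmb, Spp1, Apoe and Lpl were lower, where 99.2% were. With a pseudocount of 0.1, chosen after seeing the data, these 6 were again lower, while Tyrobp overlapped and Clec7a turned from lower (-0.38) to higher (0.85), so that no direction is read for either.

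After a single elevation Clec7a and Cd68 gained on the homeostatic markers at both ages. The differences were 1.27 and 1.40 in young retinas, where Gpnmb was the other member higher (3.17), and 1.13 and 0.86 in old ones, where Apoe (0.97), Tyrobp (0.74) and Trem2 (0.23) were also higher. The background was 3.15% of genes in young and 1.16% in old. Lpl was lower at both ages (-0.17 and -0.33), where 65.8% and 4.9% of genes were. Trem2 passed in old retinas by a narrow margin, with 0.58 and 0.94 against 0.57 and 0.48, and with a pseudocount of 0.1 Trem2 and Apoe overlapped there. With age in controls Cd68 (0.86) and Trem2 (0.36) were higher, where 4.01% of genes were, and Spp1 (-4.07), Gpnmb (-2.12), Lpl (-2.09) and Tyrobp (-0.85) lower, where 69.1% of genes were. Between treated retinas Apoe (1.13) and Cst7 (0.33) were higher in old ones, where 3.36% of genes were, and Gpnmb (-4.13), Lpl (-2.24), Spp1 (-2.20) and Tyrobp lower, where 36.8% were. Fewer members were higher there with a pseudocount of 0.1 or of 1, and Cst7 averaged 0.458 FPKM in 3mo IOP, under the pseudocount of 0.5.

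Against pan-myeloid markers Clec7a was still higher at both ages after a single elevation, with pseudocounts of 0.1, 0.5 and 1. In young retinas Clec7a (0.55) and Gpnmb (2.45) were higher, where 0.721% of genes were, and Trem2, Lpl and Apoe lower, where 95.6% were. Cd68 overlapped there (0.67), but was higher with a pseudocount of 0.1 (0.74). In old retinas Clec7a (0.51) was higher, where 0.379% of genes were, and Trem2 and Lpl lower, where 79.3% were. Tyrobp was also higher (0.12), but overlapped with a pseudocount of 0.1. With age in controls Cd68 (0.42) was higher, where 0.808% of genes were, and Tyrobp, Lpl, Spp1 and Gpnmb lower, where 81.5% were, with Clec7a lower as well but overlapping with a pseudocount of 0.1. Between treated retinas Tyrobp, Lpl, Clec7a, Spp1 and Gpnmb were lower in old ones, where 64.4% of genes were, and Apoe (0.78) higher, where 2.67% were, though it overlapped with a pseudocount of 0.1.

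**Figure D4:**
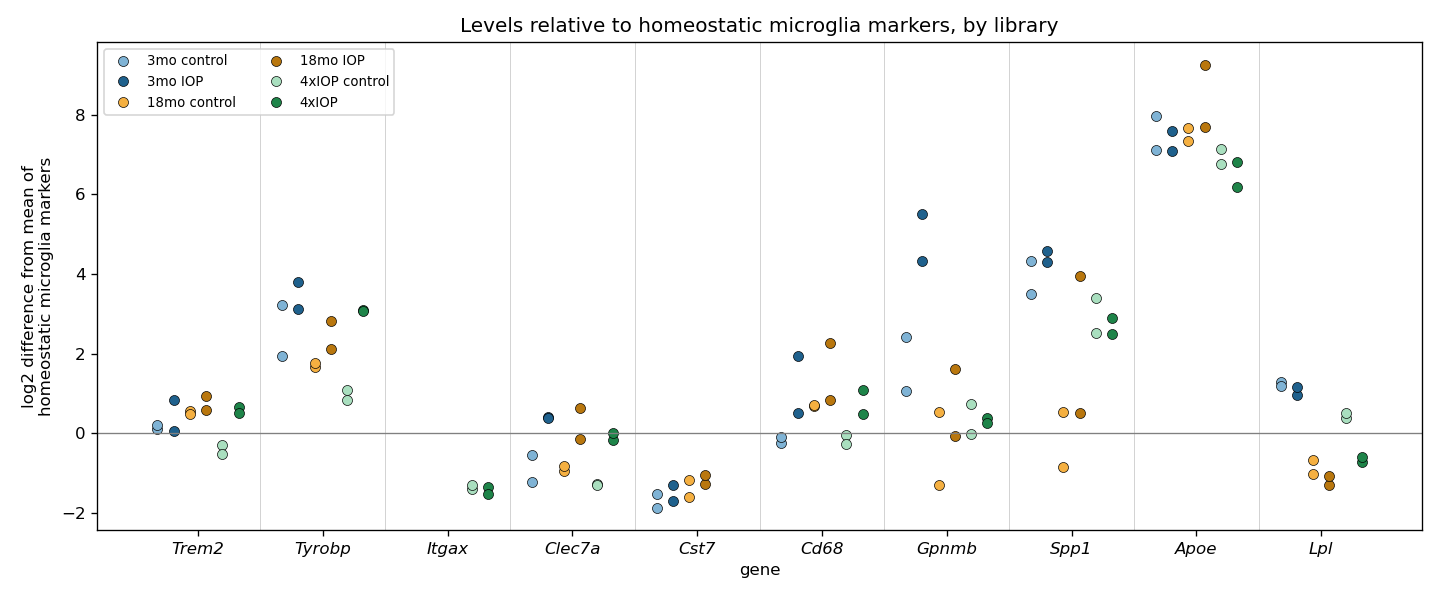
Level of each member relative to the mean of homeostatic microglia markers in the same library, as a log2 difference of FPKM + 0.5, with 1 point per library and the 6 groups in colour. The Itgax values in 4xIOP controls are set by the pseudocount. Trem2, Tyrobp, Clec7a and Cd68 lay higher in both 4xIOP libraries than in both controls. Spp1, Gpnmb and Lpl were lower in both 18mo control libraries than in both 3mo control libraries.

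Over the 6 groups the members had different orders of level. In the single-IOP table the means of Trem2, Itgax, Cst7 and Apoe ran from 3mo control through 3mo IOP and 18mo control to 18mo IOP. For Trem2 and Itgax, 3mo IOP and 18mo control overlapped, and for Trem2 and Cst7, 18mo control and 18mo IOP did. For Apoe the 3mo groups overlapped and the others stood apart. Clec7a and Cd68 had 3mo IOP above 18mo control by their means. For Clec7a all 4 groups stood apart, while for Cd68 those 2 overlapped. Spp1 and Lpl put both old groups below both young ones by their means, although 18mo IOP and 3mo control overlapped for Spp1.

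How the members varied together is a description over 8 libraries that share the 4 groups. Pearson correlations of log2 values were 0.90 for Trem2 with Cst7 and with Cd68, 0.88 for Clec7a with Cd68 and 0.84 for Tyrobp with Clec7a. Spp1 and Gpnmb formed another pair (0.77), and Lpl ran against Apoe (-0.65). Trem2 and Tyrobp, which work as a pair at the membrane, had 0.54.

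Among all tested genes, those with the pattern most like a member differed by member. The values are the highest of 13731 genes over 8 libraries in 4 groups, so a high value alone is no sign of a link. The first-ranked gene is named for each member, and the first 3 for Clec7a and Lpl. The closest were Mpeg1 (0.98), a pore protein of macrophages, for Trem2, AW112010 (0.99) for Tyrobp and Irf5 (0.97), a transcription factor of myeloid cells, for Cst7. For Clec7a they were Il13ra1 (0.99), Bcl2a1b (0.99) and Fcer1g (0.98), a relative of TYROBP as an adaptor. For Lpl they were Basp1, Tubb3 and Uchl1, all neuronal genes and all at 0.99. Syap1 (0.99) was closest to Spp1, Stbd1 (0.97) to Gpnmb, Osbpl1a (0.98) to Apoe and Fkbp9 (0.99) to Cd68.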

How the data were processed

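RNA of fresh retina was isolated in TRIzol and stranded libraries of its poly(A) fraction were sequenced. The authors aligned reads with STAR 2.7.8a and counted exonic tags of mm10 transcripts with HOMER, keeping 1 transcript a gene. The authors deposited FPKM in 2 tables scaled separately, with replicates not pooled. They ran DESeq2 for tests of their own, whose results were not used. The labels gave all groups, and 0 columns were without a sample.

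FPKM times transcript length gave whole reads for at least 99.99% of the values checked, from which depth was recovered. Genes averaging 0.5 FPKM or more in a table were tested on log2(FPKM + 0.5) with limma 3.58.1 (R 4.3.3, trended eBayes). There were 4 residual degrees of freedom over the 8 single-IOP libraries and 2 over the 4 repeated-IOP libraries. The variance prior, drawn from all tested genes, added 4.12 and 10.6 degrees of freedom. Calls needed a Benjamini-Hochberg adjusted p no higher than 0.05 and a change of 1 or more on the log2 scale. Read ratios carry exact 95% conditional binomial intervals. Promoters came from RefSeq. Steps were tested on simulated data.

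All members were named. For other lists the genes named were up to 3 called ones with the smallest p in a comparison, with Mlana, Ly6g and Cd3e named as markers, and the 3 best-correlated genes of a member were available for naming. Members, lists and this rule were chosen with earlier results of these data known. Same-numbered libraries did not deviate together and the labels do not tie them to an animal, so no block was used in the reported values. Alternatives were pseudocounts of 0.1 and 1, no filter or a minimum mean of 2 FPKM, size factors by median of ratios, eBayes without trend, removal of the transcript length trend, only the 2 groups compared, the adjusted p alone, a replicate block, voom on recovered reads and leaving out each library. A block with crossed numbers, and pan-myeloid markers as reference with a pseudocount of 0.1, were added after seeing the data.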

Additional observations from a re-analysis of the deposited data

How the results depend on the processing

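Of 937 alternative values for the 54 tested pairs of a member and a comparison, 844 kept direction and side of the threshold, 40 lost a call, 35 gained one and 18 turned direction. The members called with age in controls numbered 5, and 3 with a pseudocount of 1, 2 with no filter, 6 with a pseudocount of 0.1 (Clec7a added), 7 with the length trend removed (Tyrobp and Apoe added) and 0 to 5 with a library left out. After a single elevation in young retinas 1 member in place of 0 was called with a pseudocount of 1, with the length trend removed or with only the 2 groups fitted, and 0 to 2 with a library left out. In old retinas 0 to 1 were called with a library left out. Between treated retinas 6 in place of 3 were called with the length trend removed and 1 to 4 with a library left out. After repeated elevation the count was 5 to 7 with a library left out. Deviations of same-numbered libraries correlated at -0.28 (3mo), -0.53 (18mo) and -0.29 (4xIOP), and the labels do not say whether they share an animal, so they were not treated as pairs. With a replicate block the single young comparison had 1 member called (Gpnmb) and the counts of the other comparisons did not change. With crossed pairing, chosen after seeing the data, 5 members were called in young retinas (Tyrobp, Clec7a, Spp1, Gpnmb and Cd68) and 3 in old ones (Clec7a, Spp1 and Apoe).

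Directions turned for Tyrobp with age (-0.092 with size factors, -0.094 with voom, -0.67 to 0.81 with a library left out), Tyrobp between treated retinas (0.70 with the length trend removed, -0.77 to 0.040 with a library left out), Lpl in old retinas after elevation (0.0075 with a pseudocount of 1, 0.016 with the length trend removed, -0.67 to 0.63 with a library left out), Apoe in young (-0.11 to 0.92) and Trem2 in old retinas after elevation (-0.037 to 1.12). With a library left out, the interaction ran from -0.93 to 0.22 for Trem2, -1.18 to 0.30 for Tyrobp, -0.47 to 0.37 for Cst7, -1.09 to 0.20 for Lpl and -0.87 to 0.0083 for Clec7a.

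Members higher relative to homeostatic markers numbered 2 with age (1 against pan-myeloid markers, 2 to 4 with a library left out), 3 after a single elevation in young retinas (5 with a pseudocount of 1, 4 to 6), 5 in old retinas (2 against pan-myeloid markers, 3 with a pseudocount of 0.1, 5 to 8), 2 between treated retinas (1 against pan-myeloid markers and with either pseudocount, 2 to 5) and 4 after repeated elevation (1 against pan-myeloid markers). With pan-myeloid markers and a pseudocount of 0.1 together, chosen after seeing the data, the counts were 2 with age, 3 in young and 1 in old retinas after a single elevation, 0 between treated retinas and 1 after repeated elevation (Clec7a in place of Tyrobp).

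Over all genes the calls were 79 after a single elevation in young retinas, with 0 to 312 across settings, 17 in old retinas (0 to 306), 3185 with age (1171 to 6297), 3000 between treated retinas (677 to 5846), 843 after repeated elevation (475 to 1090) and 0 for the interaction (2 higher with no filter and 2 lower without 3mo IOP replicate 2). With size factors the share of age calls that were higher went from 50.1% to 35%, and the median of all genes after a single elevation in young retinas from 0.13 to -0.05. The causes of these changes were not tested. A minimum mean of 2 FPKM left Itgax, Clec7a and Lpl of the repeated-IOP table and Cst7 of the single-IOP table without a value, as did leaving out some libraries for Itgax and Cst7.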
